A study of Mus musculus with 2 samples.

Results

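Peaks at the 3′ ends of genes were taken from a CUT&Tag experiment on PARIS in mouse hippocampus. Members were chosen by position alone: the authors' annotation had to be "3′ UTR" or begin with "Downstream", the class for the 300 bp past a gene. This gave 1862 of 99782 annotated peaks (1.87%, 95% Wilson interval 1.78 to 1.95), of which 1742 were in the 3′ UTR class and 120 in the downstream class. All but 1 of them lay on chromosomes 1 to 19, X and Y. CUT&Tag uses an antibody to bring a transposase to a chromatin protein, so that DNA near that protein is cut and sequenced. The tissue was hippocampus from untreated CamK-PARIS animals on the C57BL/6J strain, and both libraries came from that genotype. There was 1 library with anti-FLAG, which the peaks describe, and 1 with IgG as negative control, which enters only through the peak calling. The promoter of the transgene, the age of the mice and the number of animals per library are not given in the sources used here. With 1 library per antibody no value has a replicate error and no test was made. Intervals are Wilson 95% intervals unless said otherwise and cover counting error over peaks only. Sequencing depth is unknown from the files.

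PARIS, the product of Zfp746, is a KRAB zinc-finger repressor known as a substrate of the ubiquitin ligase parkin and as a repressor of Ppargc1a, the gene of the mitochondrial regulator PGC-1α. Promoter here means the sequence within 3 kb of a transcription start site (TSS). The 3′ UTR is the stretch of a messenger RNA between the stop codon and the poly(A) tail, and in RNA it holds sites for microRNAs and RNA-binding proteins. As DNA it lies at the 3′ end of the annotated gene, and it is often long in neuronal genes. A peak there measures tagged DNA, not RNA and not transcription.

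The insulin response sequence, TATTTTT or TATTTTG, has been reported as the DNA element of PARIS. Printed here are the copies nearest the summit in the 3 members with the highest maximum signal that hold each form. Each run is 27 bases of the mm10 reference, 5′ to 3′, with the motif in capitals. On the plus strand lie the sites of Xylt1 (chr7:117672337-117672363), Anks1b (chr10:90307544-90307570) and Raly (chr2:154867265-154867291), and on the minus strand those of Tgm2 (chr2:158116402-158116428), Tob2 (chr15:81848378-81848404) and St6galnac3 (chr3:153203320-153203346).
Xylt1: gccttaaaatTATTTTTggaaagctgg
Tgm2: aataaaggtcTATTTTTcacattcaaa
Anks1b: atggcagttcTATTTTTgttcacagat
Tob2: cattgtgcaaTATTTTGgaatgagaca
Raly: tttgcttgttTATTTTGtttacatgtg
St6galnac3: gggctaactcTATTTTGgtgcttacag
The peaks around the TATTTTT sites had maximum signals of 261 (Xylt1), 261 (Tgm2) and 243 (Anks1b), and those around the TATTTTG sites 180 (Tob2), 180 (Raly) and 174 (St6galnac3). The sites lay 13 to 78 bp from the summit, the middle of the part of the peak at maximum coverage. All 6 copies read in the direction of their gene. Among all members with the motif near the summit, 68.1% had a copy in that direction. Those of Xylt1, Tgm2, Tob2 and St6galnac3 were inside an annotated 3′ UTR exon, and those of Anks1b and Raly were not. The Tgm2 run also holds AATAAA, the polyadenylation signal. The highest of these peaks ranked 43 among the members by maximum signal, and how common the motif was is given with the sequence comparison further on.

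The peaks at 3′ ends were of ordinary height. Their maximum signal, the highest coverage within a peak as the authors' caller gave it, spanned 7 to 646, and its median was 96 (quartiles 66 and 129). All other annotated peaks had a median of 101, promoter peaks (within 3 kb of a TSS) 110, intron peaks 100, distal intergenic peaks 97 and exon peaks 95. Of the members, 862 (46.3%, 44.0 to 48.6) were above the median of all peaks, against 55.98% (55.4 to 56.6) of promoter peaks. Among the 10% of all peaks with the highest total signal, which is coverage summed over the peak, were 154 members (8.27%, 7.10 to 9.61) and 18.6% (18.1 to 19.1) of promoter peaks. Peak width had a median of 367 bp at 3′ ends and 363 bp elsewhere. The next peak in any class was a median of 3790 bp away, compared with 4824 bp for all other peaks and 2542 bp for promoter peaks.

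Most of these peaks were flat. A peak is called of constant height here when its total signal is at least 99% of its maximum signal times its width, which is the shape of a rectangle. Constant height was found for 1304 members (70.0%, 67.9 to 72.1), beside 63.3% of all annotated peaks. The share was 74.0% (72.5 to 75.4) in exons, 65.7% (65.2 to 66.2) in introns, 68.1% (67.6 to 68.6) in distal intergenic sequence and 51.2% (50.6 to 51.9) in promoters, so that 3′ ends lay with the other classes away from the TSS. The 558 members that were not flat had a median maximum signal of 133 and a median width of 629 bp. Not-flat promoter peaks had a median maximum signal of 152, and those of introns 129. The downstream class did not stand apart from the 3′ UTR class, with medians of 100 and 96 for maximum signal and constant height in 64.2% (55.3 to 72.2) and 70.4% (68.2 to 72.5). Just outside the 300 bp limit of the downstream class, 338 distal peaks that began 301 to 600 bp past a transcript end had a median maximum signal of 103.

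**Figure D1:**
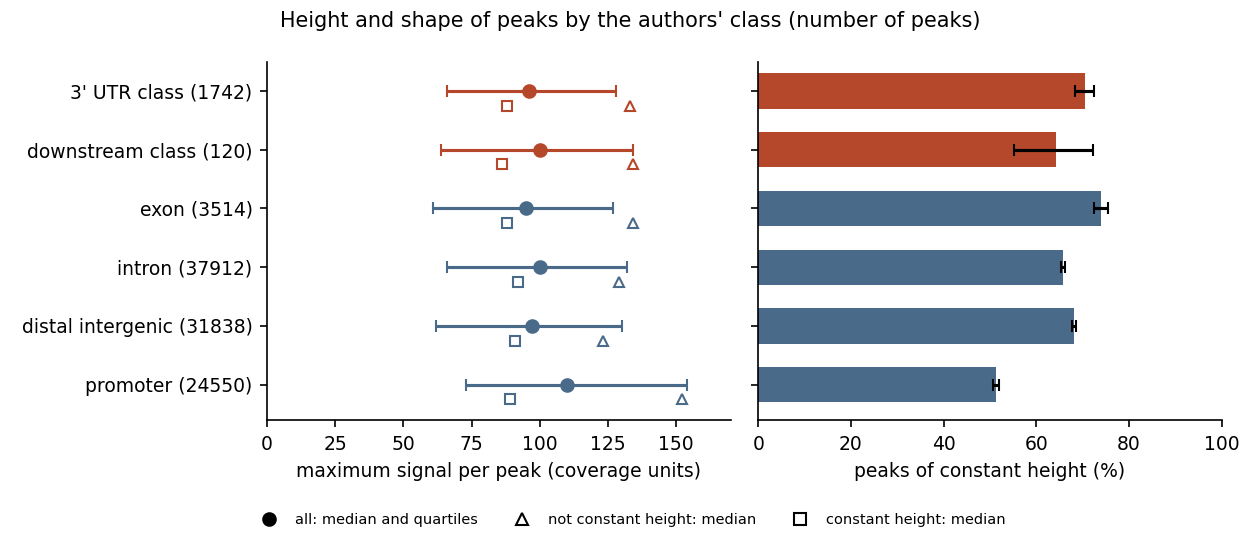
Left, maximum signal per peak (coverage units) by the authors' class: filled circles are medians and bars the quartiles, triangles the medians of peaks that were not of constant height and squares the medians of constant-height peaks. Right, share of peaks of constant height (%) with Wilson 95% intervals; the 3′ UTR and downstream classes (red) lie near introns and exons, and promoters have the highest maximum signal and the lowest constant-height share.

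The highest 3′-end peak lay in the 3′ UTR of Top2b, the gene of topoisomerase IIβ, which relieves DNA supercoiling in neurons (chr14:16432540-16433834, maximum signal 646). It ranked 87 among all annotated peaks, with its summit 58.1% of the way along the 3′ UTR, under a protein-coding gene on the opposite strand. Olfml3, which encodes a secreted olfactomedin-like protein, came next (chr3:103733821-103735253, 638), but its summit lay 167 bp from the TSS of another Olfml3 transcript. Diras1, a small GTPase of the Ras family, had the widest of all 3′-end peaks at 3403 bp and the highest total signal (chr10:81019371-81022773, maximum 474, total 386980), and this peak spanned the transcript end. The peak of Slc13a3, a sodium-coupled dicarboxylate transporter, reached 409 and also spanned the transcript end. Dab2ip, which encodes a Ras GTPase-activating protein, had a peak of 404 that was 2474 bp wide. Neurofascin (Nfasc), an adhesion molecule of the axon initial segment and node of Ranvier, had a peak of 386 about midway along the 3′ UTR (48.6%) and another of 194 nearer its end. All 6 varied in height along their length.

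The rest of the 10 highest were in genes of transcription factors and neuronal proteins. Nfix, a nuclear factor I transcription factor, had a peak of 351, and Zbtb7b, a BTB zinc-finger factor, one of 348 with a GC content of 70.0% at the summit. Slc6a17, a vesicular amino acid transporter, had one of 347 that lay 109 bp from the TSS of another Slc6a17 transcript. Mapt, the gene of the microtubule-associated protein tau, had one of 343 in the early part of the 3′ UTR. The authors' table, which names 1 gene per peak with the distance to its TSS, gave the Nfix peak to Lyl1 and the Slc6a17 peak to Kcnc4, although GENCODE M21 has a nearer TSS of the host in both cases (2720 and 109 bp). A promoter peak was found for 8 of the 10 genes, all but Top2b and Diras1. Of all genes with a 3′-end peak 76.6% had one, and of all protein-coding genes with a 3′ UTR 58.2%.

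By total signal the ranking brought in broad peaks. Besides Diras1, the 10 highest included Olfml3, Dab2ip and Nfasc at 267003, 249250 and 229738. The peaks of Xylt1, the xylosyltransferase that starts proteoglycan chains, and of Wdtc1, a WD-repeat adaptor, had 220205 and 210868. Socs7, a suppressor of cytokine signalling, had 195691, and Ttbk1, a kinase that phosphorylates tau and tubulin, had 176757. Pnmal2, of the paraneoplastic Ma antigen family, closed the list of 10 at 175002. Of the genes named here by total signal, Xylt1 had a copy of the insulin response sequence in its 200 bp summit window and the others did not. Of all members, 10.2% had a copy there. In the downstream class the highest maximum signals were 267 at Stk40, a protein kinase gene, 259 at Miga2, a mitochondrial fusion factor, 236 at the integrin gene Itga11, 223 at the F-box gene Fbxo42 and 216 at Pih1d2. The peaks of Stk40, Miga2 and Itga11 spanned the transcript end, and those of Fbxo42 and Pih1d2 began past it.

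The gene whose 3′ end holds a peak was often not the gene the peak had been assigned to. In GENCODE M21, 1857 of 1861 members had a host gene, meaning that the region of maximum signal overlapped its 3′ UTR or the 300 bp past its end. For 692 of these (37.3%, 35.1 to 39.5) the authors' table named another gene. The hosts were 1611 genes. Of them, 1595 were protein-coding genes with a 3′ UTR, which is 7.59% of the 21028 such genes. Of the 1737 placed members of the 3′ UTR class, 1496 (86.1%, 84.4 to 87.7) overlapped a 3′ UTR of a protein-coding transcript. The other 241 (13.9%, 12.3 to 15.6) overlapped one only in other transcript types, such as those marked for nonsense-mediated decay. The summit fell under a gene on the opposite strand in 168 members (9.05%, 7.82 to 10.4).

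Few of the peaks sat near an annotated start site, which follows in part from how members were chosen, with promoter peaks classed first. Within 1 kb of the TSS of any annotated transcript were 52 of 1857 (2.80%, 2.14 to 3.65), compared with 1.85% (1.72 to 1.99) of intron peaks and 23.6% (22.2 to 25.02) of exon peaks. In 23 of the 52 the TSS belonged to the host gene itself. The other 29 were near TSSs of other genes, of which 13 were antisense RNAs and 5 long intergenic RNAs. Within 3 kb there were 167 (8.99%, 7.77 to 10.4), although the authors' classes put promoters first. Their transcript set is not given in the sources used here.

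Peaks were denser in 3′ UTRs than in the genome at large. Counted by summit in GENCODE M21, and outside 3 kb of every TSS, 3′ UTR sequence held 1322 peaks in 25.7 Mb, or 51.4 per Mb. The density was 47.4 per Mb in other exons, 42.1 in introns, 45.8 in the 300 bp past genes, 23.1 in distal intergenic sequence and 72.2 in promoters. The genome as a whole had 37.7 per Mb, so that 3′ UTRs stood at 1.36 times the genome and introns at 1.12 times. Among peaks not of constant height the density of 3′ UTRs was 16.04 per Mb, 1.16 times the genome, and that of introns 14.1. By chromosome, peaks per Mb of 3′ UTR had a mean of 52.4 ± 13.2 (SD over 19 autosomes), lowest on chromosome 14 at 36.0 and highest on chromosome 15 at 84.0. The X chromosome was below all autosomes at 14.9 per Mb, 0.282 of the pooled autosomes, and over all its sequence it also had few peaks, at 12.1 per Mb.

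**Figure D2:**
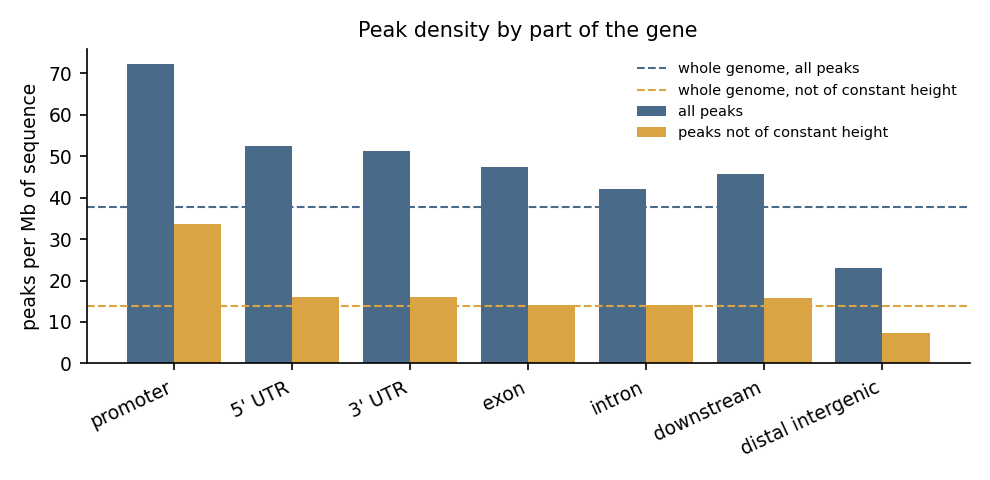
Peaks per Mb of sequence in each part of the gene (GENCODE M21, promoter within 3 kb of a TSS taking priority) for all peaks and for peaks not of constant height; dashed lines are the genome-wide values, 37.7 and 13.8 per Mb. The 3′ UTR bar for all peaks (51.4) lies above introns (42.1) and below promoters (72.2).

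Peak density changed little across the transcript end. Around the 3′ ends of protein-coding genes, outside 3 kb of every TSS, the density was 50.7 per Mb from 5 to 2.5 kb before the end and 55.3 in the last 1000 bp. It was 58.1 in the first 1000 bp past the end and 53.2 from 2.5 to 5 kb past it. Peaks not of constant height were as even, with 17.9, 18.2, 19.9 and 19.9 per Mb in the same stretches. Members alone follow the rule that chose them and drop off past the end. Their summits lay a median of 662 bp from the nearest transcript end of the host, 780 of 1857 (42.0%, 39.8 to 44.3) were within 500 bp, and the whole peak spanned a transcript end in 349 (18.8%, 17.1 to 20.6). Of the wider peaks not of constant height, 27.03% (23.5 to 30.9) did so, against 15.3% (13.4 to 17.3) of the constant-height ones.

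**Figure D3:**
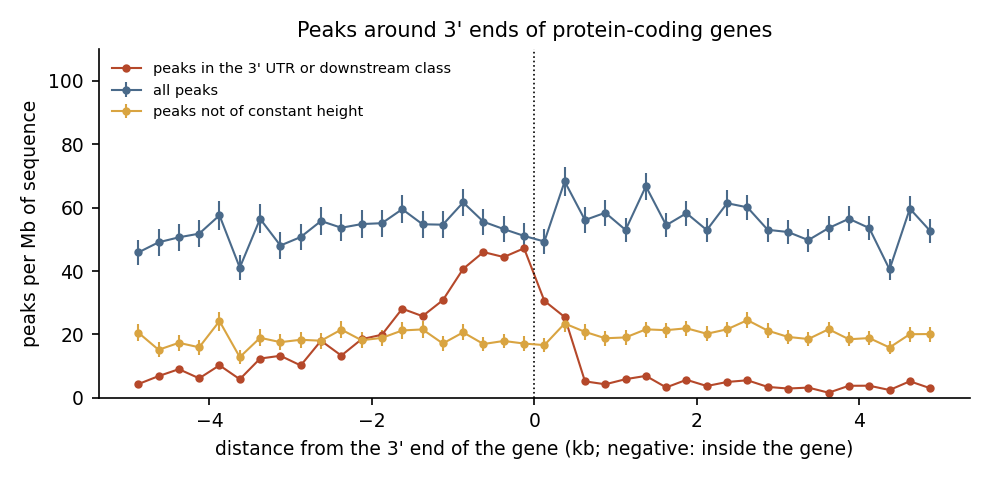
Peaks per Mb of sequence in 250 bp steps around the 3′ ends of protein-coding genes (distance in kb, negative inside the gene), outside 3 kb of every TSS; error bars are the square root of the count and cover counting error only. The lines for all peaks and for peaks not of constant height run level across the end, and the line for the 3′ UTR and downstream classes falls past it because those classes stop there.

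Along the 3′ UTR the summits leaned towards the transcript end, by an amount that depended on the transcripts used. Position was measured from the stop codon to the transcript end in genomic bases. In the longest 3′ UTR that holds the summit, 1420 members had a median position of 58.2% (95% interval from ranks 55.3 to 60.5). The stretch from 90 to 100% held 215 of them (15.1%, 13.4 to 17.1). With the shortest such 3′ UTR the median was 57.6% (54.15 to 59.6), and that stretch held 12.3% (10.7 to 14.1). The excess in the last stretch did not remain with protein-coding transcripts alone, an alternative added after the data were seen. Over the 1298 members with such a 3′ UTR, the median was 53.2% (50.8 to 55.9). Stretches of 10% of the length held between 8.78% and 11.8% each. Maximum signal varied little from start to end, with medians of 95, 102, 104, 104 and 94.5 in 5 equal stretches from the stop codon on. The GC content at the summit was 51.7 ± 8.17% (SD over 237 peaks) in the first of these stretches and 47.6 ± 8.57% (SD over 274 peaks) in the last.

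**Figure D4:**
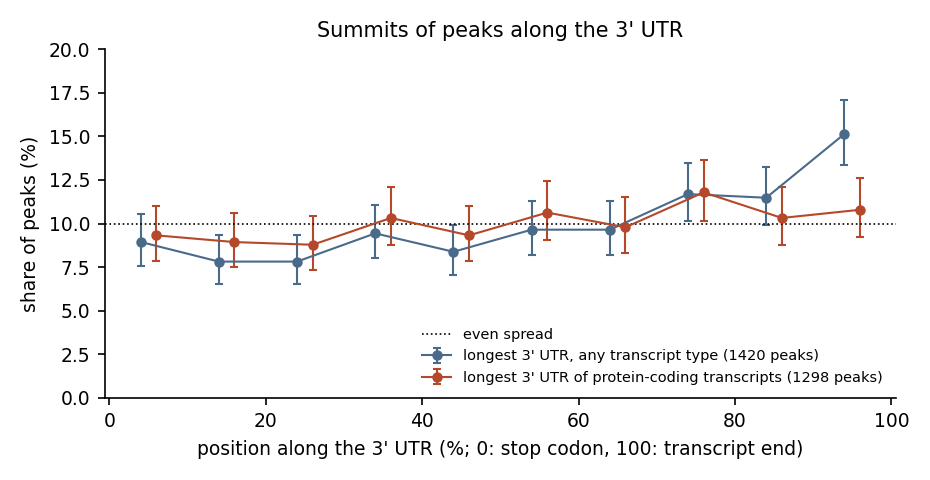
Share of peaks (%) in steps of 10% of the 3′ UTR, from the stop codon (0%) to the transcript end (100%), in the longest 3′ UTR of any transcript type and in the longest of protein-coding transcripts, with Wilson 95% intervals; the dotted line is an even spread. The last step holds 15.1% with any transcript type and 10.8% with protein-coding transcripts.

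Summits at 3′ ends were richer in GC than their surroundings and than 3′ UTR sequence beyond 3 kb of every TSS. The 200 bp window at the summit had a mean GC content of 49.5 ± 8.21% (SD over 1861 peaks), and the windows 1000 bp to either side 47.6 and 47.2%. The same held for all other annotated peaks, with 49.02 ± 8.93% (SD over 97843 peaks) at the summit and 45.6% in both flanks, a wider gap than at 3′ ends. The mean difference from the flanks was 2.08 percentage points (95% normal interval over peaks 1.71 to 2.44). The 3′ UTR sequence beyond 3 kb of every TSS, cut into whole windows of 200 bp, averaged 42.9 ± 8.67% (SD over 114478 windows). These are called all 3′ UTR windows below. Members are not limited to such sequence: 1291 of 1861 summits (69.4%, 67.2 to 71.4) lay in it. Members not of constant height averaged 52.7% at the summit. Windows rich in CpG, with a GC content of at least 50% and an observed over expected ratio of at least 0.6, were 3.22% (2.51 to 4.13) of members and 24.3% (23.8 to 24.9) of promoter peaks. Repeat-masked bases made up 13.6% of the summit windows, compared with 18.8 and 18.1% of their flanks and 22.4% of other peak summits.

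The insulin response sequence was not more frequent at these summits than beside them. It was searched as TATTTTT or TATTTTG on both strands, and 189 of 1861 summit windows held it (10.2%, 8.86 to 11.6), beside 9.97% of all annotated peaks. The flanks held it in 12.3% (10.8 to 13.8) and 11.9% (10.5 to 13.4), and the mean difference of summits from their own flanks was -1.91 percentage points (normal interval -3.64 to -0.18). All 3′ UTR windows held it in 18.4% (18.2 to 18.6). GC content moved with this gap. Under 40% GC the motif was in 37.3% (31.5 to 43.6) of members and 34.4% (33.9 to 34.8) of all 3′ UTR windows, and from 50 to 55% GC in 4.56% (2.998 to 6.86) and 3.85% (3.57 to 4.15). In each of the 5 GC bands the share in all 3′ UTR windows lay within the members' interval. On the strand of the gene, 128 of the 188 windows with the motif and a host had it (68.1%, 61.1 to 74.3), against 64.2% (63.6 to 64.9) of all 3′ UTR windows with the motif. AATAAA on the gene strand was in 9.91% (8.63 to 11.3) of summit windows, 10.3 and 9.70% of the flanks and 15.5% (15.2 to 15.7) of all 3′ UTR windows. All 3 motifs are rich in A and T, and a match is only a match of letters.

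**Figure D5:**
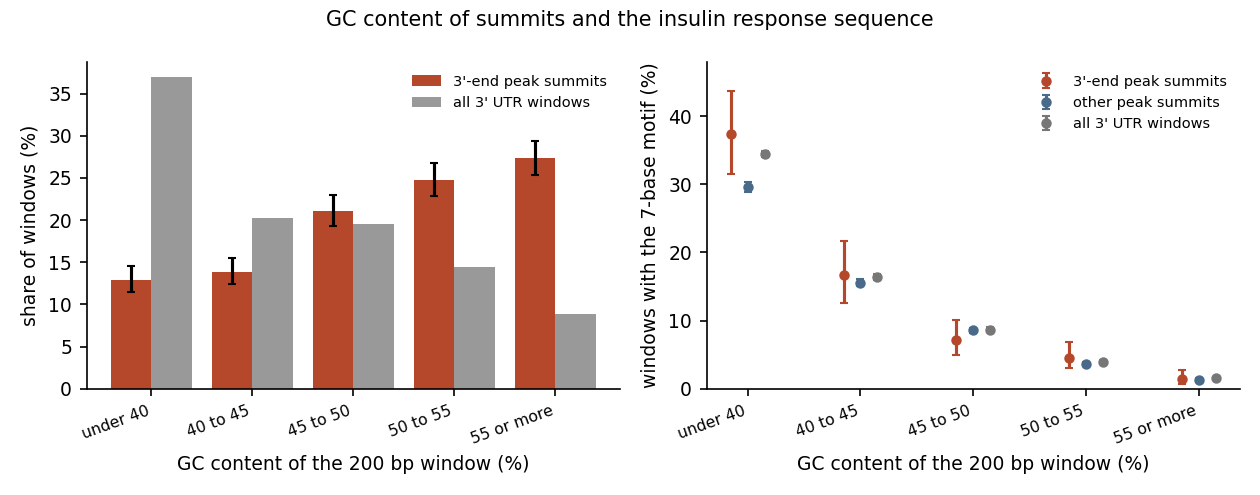
Left, share of 200 bp windows (%) in each band of GC content for 3′-end peak summits (Wilson 95% intervals) and for all 3′ UTR windows, which lie beyond 3 kb of every TSS. Right, share of windows with TATTTTT or TATTTTG on either strand (%) in the same bands, with other peak summits added; summits are shifted to high GC (27.3% at 55% or more, against 8.92% of all windows), and within a band the points for 3′-end peaks lie close to those of all 3′ UTR windows.

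Genes with a 3′-end peak more often had a promoter peak as well. A promoter peak (within 3 kb of any TSS of the gene, members left out) was present in 1222 of the 1595 genes (76.6%, 74.5 to 78.6) and in 56.7% (56.0 to 57.4) of the 19433 other protein-coding genes with a 3′ UTR. Genes with a 3′-end peak were also longer (median 38852 bp against 17063 bp) and had more 3′ UTR sequence beyond 3 kb of every TSS (median 1898 bp against 384 bp), the only sequence most members could fall in. Of the 14370 genes with any such sequence, 1497 had a 3′-end peak (10.4%). In 4 equal groups of these genes by the length of that sequence, genes with and without a promoter peak had a 3′-end peak in 5.39 and 2.81%, 10.3 and 4.43%, 13.2 and 7.05%, and 21.97 and 12.2%, from the shortest group to the longest. The difference had the same direction in each of the 4, while gene length still differed within each (in the longest group, medians of 61958 and 31417 bp). Its part in the result was not tested. Among the 1222 genes with both, the 3′-end peak was the higher in 305 (24.96%, 22.6 to 27.5), and the medians were 103 for the 3′-end peak and 161 for the highest promoter peak.

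A single peak per gene was the rule, in 1388 of the 1595 genes. There were 177 genes with 2, 24 with 3, 5 with 4 and 1 with 5. Tanc2, a scaffold protein of the postsynaptic density, had 5, with maximum signals of 215, 128, 121, 119 and 58, the one of 119 past the end of the gene. Cx3cl1, the neuronal chemokine fractalkine that signals to microglia, had 4 at 213, 177, 160 and 116. The one of 177 was in the downstream class. The one of 160 lay in a 3′ UTR of 214 bp, apart from that of 1871 bp with the peaks of 213 and 116. Ddx17, an RNA helicase, had 4 at 132, 88, 75 and 66 within a 3′ UTR of 2276 bp. Iqsec3, an exchange factor for Arf GTPases at inhibitory synapses, had 4 at 132, 92, 80 and 53. The one of 132 overlapped a 3′ UTR only in a transcript type that is not protein-coding. The 4 of D10Wsu102e, at 199, 169, 120 and 17, lay in a 3′ UTR annotated over 122583 bp. Hmcn2 tied with these at 4 and was not among the named genes by the rule. In Tanc2, Iqsec3 and D10Wsu102e the lowest peak lay below, and the highest above, the quartiles of all members (66 and 129).

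Among neuronal genes, potassium channels and calcium/calmodulin kinases had 3′-end peaks above the 7.59% of all genes. Both lists have long 3′ UTRs, with medians of 2409 and 2809 bp beyond 3 kb of every TSS, against 1094 bp for all genes with such sequence. Of 38 potassium channel genes, which set the firing pattern of neurons, 10 had a 3′-end peak (26.3%, 14.97 to 42.0). Among them were Kcnma1, the calcium-activated BK channel (146, only in a transcript type that is not protein-coding and 67553 bp before the nearest transcript end), Kcnq3, an M-current subunit (145), and Kcnc1, a fast delayed-rectifier channel (144). Of 13 genes of calcium/calmodulin kinases and their partners, 4 had one (30.8%, 12.7 to 57.6). These were Camk2n1, an inhibitor of CaMKII (269), Camkk2, an upstream kinase (125), Camk2a, the α subunit of CaMKII (118), and Camk1d (53). Density of a list is given as all members of its genes with 3′ UTR sequence beyond 3 kb of every TSS, per Mb of that sequence. Some members so counted lie outside it, such as the Kcnma1 peak. The values are therefore not those of summits counted inside 3′ UTR sequence (51.4 per Mb). So counted, the channels had 106.8 per Mb (exact Poisson 95% interval 56.8 to 183) and the kinases 203 (74.5 to 442), against 73.5 for all genes. The interval of the channels includes the value of all genes, and that of the kinases, with 6 peaks in all, begins just above it, with 3 of the 6 in Camk2a alone.

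Camk2a was also the 1 gene with a 3′-end peak among 9 genes linked to PARIS or to the genotype's name. That is 11.1% (1.99 to 43.5), an interval that includes the 7.59% of all genes. It had 3 peaks, at 118, 87 and 60, all of constant height. Whether its promoter is part of the transgene is not given in the sources used here. The other 8, which include Ppargc1a and Zfp746, had none. Promoter peaks were present at 5 of the 9 (55.6%, 26.7 to 81.1), near the 58.2% of all protein-coding genes with a 3′ UTR.

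Synaptic scaffolds and glutamate receptors, which build the postsynaptic density, had a 3′-end peak in 7 of 39 genes (17.9%, 8.98 to 32.7). Among them were the NMDA receptor subunits Grin2a (122) and Grin2b (79) and the scaffold Dlgap2 (117). Neuronal RNA-binding proteins, which act on 3′ UTRs as RNA, had one in 5 of 31 (16.1%, 7.09 to 32.6): Celf1 (144), Celf5 (137), Celf2 (121), Cpeb2 (120) and Nova2 (119). The densities were 88.1 (42.3 to 162) and 85.2 (34.2 to 175) per Mb, close to the 73.5 of all genes. Zinc-finger genes whose symbols begin with Zfp had one in 31 of 385 (8.05%, 5.73 to 11.2), near the share of all genes. Their density was 48.2 per Mb (32.3 to 69.2), an interval that lies below the 73.5 of all genes. Their highest peaks were at Zfp334 (299), Zfp710 (261), Zfp408 (196) and Zfp775 (195). The summits at Zfp710, Zfp408 and Zfp775 lay 1728, 2430 and 49 bp from the TSS of another gene, and that at Celf5 1191 bp.

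Immediate early genes, which neuronal activity switches on within minutes, had no 3′-end peak in any of 20, while all 20 had a promoter peak. Only 12 of them have 3′ UTR sequence beyond 3 kb of a TSS, and a count of 0 there allows up to 115.5 peaks per Mb by the limit of 3 counts and 142 by the exact Poisson interval, both above the value of all genes. No 3′-end peak was seen in 12 astrocyte genes (up to 128 and 158 per Mb by the same limits) or in 54 replication-dependent histone genes, of which 3 have such sequence. The 39 clustered protocadherins, cell-surface proteins that give neurons their identity, had none either. Many of them share their 3′ exons, so no density is given for them. Myelin genes had 3 of 14 (21.4%, 7.57 to 47.6), beside 7.59% of all genes. They were at Mbp (84), Cnp (62) and Mobp (41), all below the median of members. All 3 peaks were flat, as were 70.0% of members. Flat as well were the peaks given above for Kcnma1, Kcnq3, Kcnc1, Camkk2, Grin2a and Grin2b, while those for Camk2n1 and Celf5 were not. Microglia genes had 1 of 12 (8.33%, 1.49 to 35.4), at Trem2 (98). Respiratory chain genes had 1 of 61 (1.64%, 0.29 to 8.72), at Cycs (85), the gene of cytochrome c. Cytosolic ribosomal protein genes had 1 of 82 (1.22%, 0.216 to 6.59), at Rps15a (133). In the last 2 lists, 28 and 9 genes have any 3′ UTR sequence beyond 3 kb of a TSS. The densities of the myelin, microglia, respiratory chain and ribosomal lists were 146.5 (30.2 to 428), 142 (3.6 to 791), 70.7 (1.79 to 394) and 102 (2.59 to 569) per Mb. Each interval includes the 73.5 of all genes.

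The labelled tissue was checked at promoters, where a peak does not measure expression. Promoter peaks were found at 9 of 10 markers of hippocampal excitatory neurons, 5 of 6 of interneurons, 4 of 6 of astrocytes, 3 of 7 of oligodendrocytes, 1 of 6 of microglia and 2 of 6 of tissues outside the brain, beside 58.2% of all protein-coding genes with a 3′ UTR. At 3′ ends, 4 of the 10 excitatory markers had a peak, namely Neurod2 (241), Zbtb20 (126), Camk2a and Grin2b. The interval of that share, 16.8 to 68.7%, lies above the 7.59% of all genes. Their median 3′ UTR length beyond 3 kb of every TSS was 2802 bp, against 1094 bp for all genes with such sequence. Their density was 118.8 per Mb (43.6 to 259), an interval that includes the 73.5 of all genes. Of the other markers, only Mbp and Mobp of the oligodendrocytes had a 3′-end peak. The counts of 0 allow up to 190.6 (astrocytes), 488 (interneurons) and 565.5 (microglia) peaks per Mb by the exact Poisson interval. Each limit is above the value of all genes.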

How the data were processed

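Per the labels, the authors mapped trimmed read pairs to mm10 (Bowtie2), dropped duplicates and reads of low quality, and used SEACR with IgG as control to call anti-FLAG peaks. Versions and the SEACR settings are not given in the sources used here. The deposited signal values are coverage, summed over each peak or at its maximum, with any scaling not stated. Both columns were used as deposited, and the authors' annotation table supplied class, assigned gene and distance to the TSS. Hosts, positions, densities and TSS distances came from GENCODE M21, and sequence from the GRCm38.p6 RefSeq assembly, both of the mm10 build. Coordinates count from 1. Scripts ran in Python 3.11.15 with pandas 2.3.3, scipy 1.17.1 and pysam 0.24.0, and were tested on made-up genes and windows of known answer.

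Genes named are hosts of the 10 members with the highest maximum signal, of the 10 with the highest total signal and of the 5 highest in the downstream class, the 5 genes with the most members, and up to 4 genes per list with the highest maximum signal. Printed motif sites come from the 3 highest members per motif, leaving out chromosome 18. Some items that the rule names are not reported here. Genes completing a small list, the tied gene and the marker genes were named besides. The members and lists were chosen with earlier results of these data known. No test was made, because 1 library per antibody gives no replicate error. The IgG library itself is not analysed here.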

Additional observations from a re-analysis of the deposited data

How the results depend on the processing

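Of 59 alternatives over 12 results, 29 kept the value within its interval (or, for the count, within 1.5 times), 30 moved it and 0 turned a direction, and 7 of the 59 were chosen after seeing the data. Peaks above the median maximum signal, the 10% with the highest total signal and peaks not of constant height gave 862, 154 and 558 members. In that order their median maximum signal was 132, 215 and 133, their median width 302, 797 and 629 bp, their GC content above the flanks 3.04, 4.33 and 3.57 percentage points, and the share of their genes with a promoter peak 67.1, 48.3 and 67.6%. Genes without a 3′-end peak had one in 41.8, 19.2 and 38.7% from the same smaller lists. Constant height fell to 56.6% and 1.30% in the first and second of these sets. The 10% with the highest total signal had a density ratio of 1.22, a median position of 55.1% and 37.9% within 500 bp of a transcript end. Peaks not of constant height had a density ratio of 1.16 and another assigned gene in 39.6%. The density ratio was 1.55 with 3′ UTR sequence near TSSs included, and the median position was 53.2% with protein-coding transcripts only. Within 250 and 1000 bp of a transcript end lay 23.2 and 61.8%, and within 500 bp and 3 kb of a TSS 1.24 and 8.97%. In windows of 400 bp the insulin response sequence differed by -4.70 percentage points between summits and flanks. With promoters taken within 1 kb, 65.7% of genes with a 3′-end peak had a promoter peak. By construction the member counts fall and the shares within other distances move, the promoter peaks within 1 kb among them. Median maximum signal also rises by construction among peaks chosen by maximum signal. Choosing by total signal, which is coverage summed over the peak, favours high and wide peaks. For the other moved values the cause was not tested. No paired analysis was possible because each antibody has 1 library, and no replicate could be left out for the same reason. Depth is unknown, so how many peaks it hides cannot be said.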
